A study of Mus musculus with 9 samples.

Results

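The 9 transcription factor genes described here set and maintain the identity of myeloid cells: Spi1 (which encodes PU.1), Cebpa, Cebpb, Cebpd, Maf, Mef2a, Mef2c, Runx1 and Mitf. They were chosen by name from the table of expression values, by matching Ensembl gene identifiers to symbols. All 9 were among the 12204 genes listed, and all 9 passed the filter on low values that left 12196 genes for testing. Marrow of C57/Bl6J mice had been grown into macrophages with L929 cell supernatant (20% by volume, 6 days), the only source of growth factor that the labels name. The cells were then left untreated, given LPS (lipopolysaccharide, the outer membrane molecule of many bacteria that Toll-like receptor 4 senses) at 10 ng/ml for 4 h, or given 50 µM BMS303141 for 1 h before that LPS exposure. BMS303141 blocks ATP-citrate lyase, the enzyme that makes acetyl-CoA in the cytosol. Each group had 3 libraries. Among these 9 libraries none received the inhibitor alone, and no vehicle is named, so the inhibitor was compared only on top of LPS. The labels do not tie replicates to separate mice or cultures, and the p-values therefore measure only the spread between libraries, which may be technical.

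PU.1, an ETS factor, binds near most macrophage genes and opens their enhancers together with RUNX1 and C/EBP factors. C/EBPα directs early myeloid differentiation, while C/EBPβ and C/EBPδ are known for acting on genes of acute inflammation, and the 3 proteins bind the same DNA sites. c-MAF restrains the proliferation of mature macrophages, MEF2 factors link signalling to chromatin by exchanging class IIa histone deacetylases for activators, and MITF belongs to the MiT/TFE group of lysosome and osteoclast regulators.

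Messenger RNA was read from its 3′ end, so these values do not tell apart transcripts that share a 3′ end. RefSeq lists 3 promoters for Mef2c, 3 for Mitf and 2 for Runx1 in the table used. Levels are log2 CPM (read counts scaled to a common library size, on a log2 scale) that had been quantile-normalised over the 9 libraries before deposit. Read depth, estimated from the steps between values, was about 1.84 to 5.05 M (mega) reads per library, and the fewest reads behind any value of the 9 factors were about 22.5, for Cebpd in untreated replicate 2. LPS replicate 1 was the shallowest library and stood apart: its score on the second principal component was -63.1, against 1.31 and -5.48 in the other LPS libraries. All 8 macrophage markers checked were listed, with summed levels of 8613 to 9157 CPM in untreated cells, 3798 to 4293 with LPS and 4092 to 4272 with inhibitor and LPS. Of 9 neutrophil markers 2 were among the genes listed (S100a8 and S100a9), and their sum was 7.81 to 29.6 CPM untreated, 33.9 to 60.9 CPM with LPS and 172 to 264 CPM with inhibitor and LPS. Itgax, the 1 of 7 dendritic cell markers listed, stood at 3.04 to 4.19 CPM untreated, 13.5 to 22.5 CPM with LPS and 4.77 to 5.36 CPM with inhibitor and LPS. Hdc, the 1 of 5 mast cell and basophil markers listed, stood at 2.21 to 2.59 CPM untreated, 106 to 118 CPM with LPS and 60.5 to 77.2 CPM with inhibitor and LPS. The part of these markers in the results below was not tested. In bulk samples, fewer cells of a type and less RNA per cell cannot be told apart.

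LPS moved all 9 factors: 4 rose (Spi1, Cebpb, Cebpd and Mitf) and 5 fell (Cebpa, Maf, Mef2a, Mef2c and Runx1). A gene was called where limma's test over all tested genes gave an adjusted p under 0.05, which 47.0% of genes met in this comparison (21.5% higher and 25.4% lower). The 3 largest of these differences were falls of Mef2c and Cebpa and a rise of Cebpd, each more than 10-fold. S100a8, Itgax and Hdc rose in the same comparison, by 2.17, 2.23 and 5.56 on the log2 scale. S100a9, the other neutrophil marker listed, had a lower mean with LPS and was not called. Of the 8 macrophage markers 7 were called lower. The LPS and untreated libraries did not overlap for any of the 9 factors, as held for 52.6% of tested genes. The median difference of the 9 was -0.37 on the log2 scale, beside -0.06 over all tested genes. With the inhibitor added to LPS, 1 of the 9 was called, Cebpa, which rose. Maf, Mef2c and Runx1 had unadjusted limma p-values of 0.0011, 0.0083 and 0.011 but were not called. The background in that comparison was 2.12% of genes called, 0.959% higher and 1.16% lower. The groups did not overlap for 5 factors (Cebpa, Cebpb, Maf, Mef2c and Runx1), beside 21.4% of tested genes, and the median difference of the 9 was 0.08, beside -0.0043 over all genes. In this same comparison S100a8 rose by 2.29 (adjusted p = 0.00377), Itgax fell by 1.68 (adjusted p = 0.00587) and Hdc fell by 0.70 (adjusted p = 0.0319). S100a9 had a higher mean with the inhibitor but was not called, and 1 of the 8 macrophage markers was called higher.

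**Figure D1:**
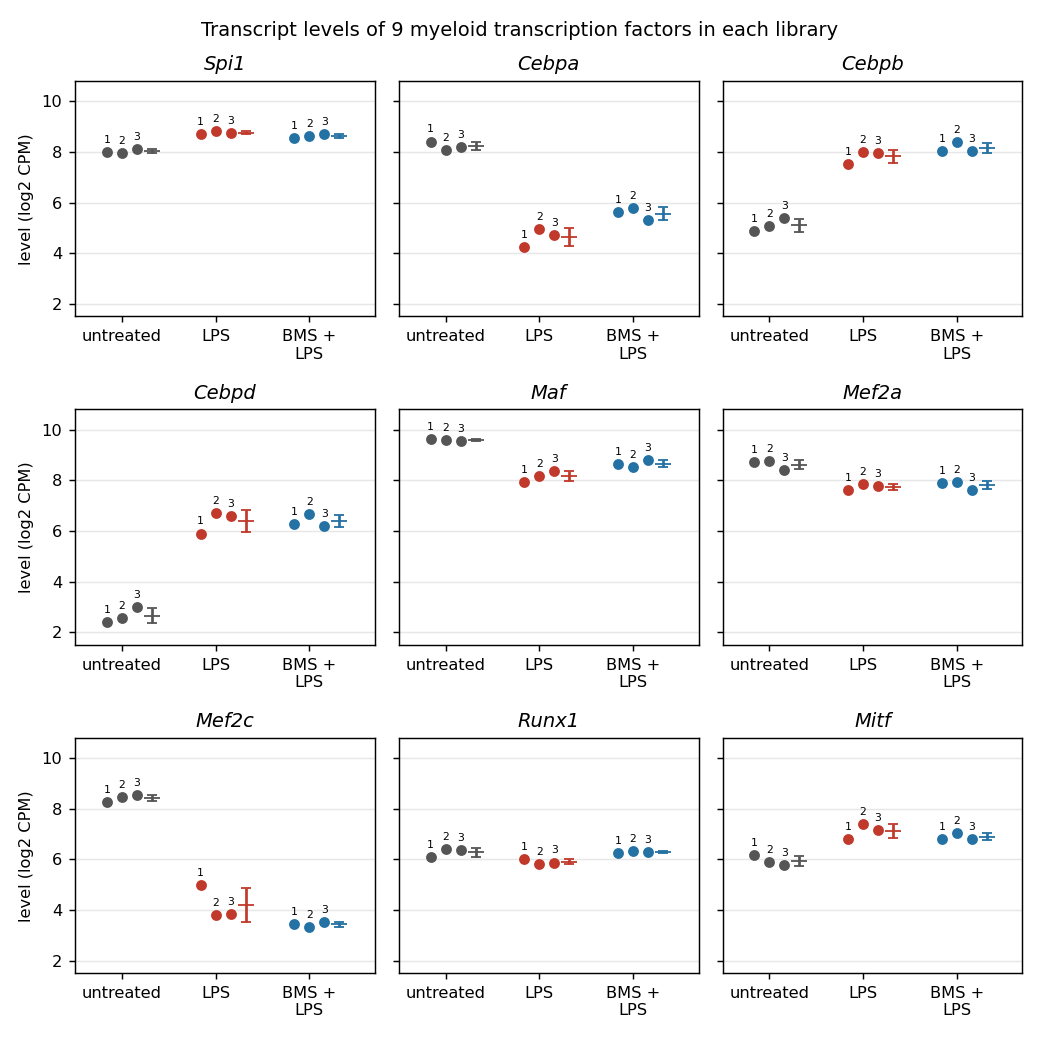
Level of each factor (log2 CPM) in the 9 libraries. Points are libraries with their replicate number, and the bar beside them is the group mean with its SD (n = 3). Mef2c and Cebpa lie above 8 in every untreated library and below 5 in every LPS library, while Cebpd lies at 3.00 or lower untreated and at 5.90 or higher with LPS.

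**Figure D2:**
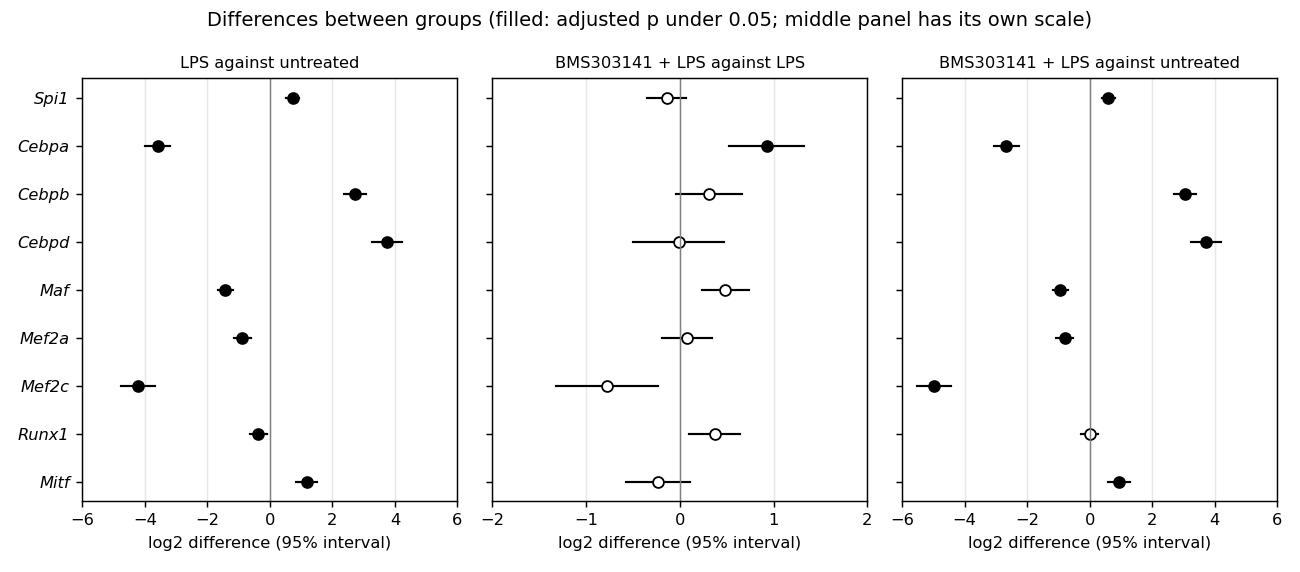
Log2 difference between groups for each factor (points) with its 95% interval (lines), from limma. Filled points have an adjusted p under 0.05. All 9 are filled for LPS against untreated, and Cebpa is the one filled point for BMS303141 with LPS against LPS.

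The C/EBP genes moved in opposite directions. Because Cebpa fell while Cebpb rose, the 250 bases ahead of the RefSeq start of each gene are shown (GRCm38.p6, plus strand). Cebpb (ENSMUSG00000056501, chromosome 2, 167688915 to 167690418, plus strand) has the window chr2:167688665-167688914. Cebpa (ENSMUSG00000034957, chromosome 7, 35119293 to 35121928, plus strand) has the window chr7:35119043-35119292. Capitals mark matches to TGACG on either strand (the 5 bases at the core of the cAMP response element) and to TATAAA (the TATA box).
Cebpb: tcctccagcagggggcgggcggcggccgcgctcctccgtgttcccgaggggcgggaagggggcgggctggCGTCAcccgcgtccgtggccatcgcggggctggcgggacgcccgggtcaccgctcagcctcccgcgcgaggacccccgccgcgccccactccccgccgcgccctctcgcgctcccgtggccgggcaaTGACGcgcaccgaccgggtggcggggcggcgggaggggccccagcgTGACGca
Cebpa: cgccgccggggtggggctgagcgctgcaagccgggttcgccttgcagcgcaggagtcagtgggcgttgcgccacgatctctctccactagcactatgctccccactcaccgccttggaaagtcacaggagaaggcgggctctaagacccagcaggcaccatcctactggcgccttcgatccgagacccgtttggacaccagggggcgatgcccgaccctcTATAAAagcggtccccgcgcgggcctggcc
The Cebpb window held 3 matches to TGACG, from -180 to -176 on the minus strand and from -53 to -49 and -7 to -3 on the plus strand, counted back from the start. At least 1 such match stood in 17.8% of 32851 RefSeq windows of the same length, and 3 or more in 0.688%. The Cebpa window held TATAAA from -30 to -25, as did 12.4% of windows somewhere in their length. The other patterns searched on both strands had no match in either window. These were the C/EBP palindrome TTGCGCAA, found in 0.164% of windows, and the looser C/EBP core TTNCNNAA, found in 36.8%. The AP-1 motif TGANTCA was found in 6.75% and the full cAMP response element TGACGTCA, which contains the 5-base motif above, in 1.55%. The ETS motif GGAAGT was found in 19.7%, the MiT/TFE motif CACGTG in 6.02%, the CCAAT box in 33.8% and the NF-kB motif in 7.25%.

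Cebpa, the early myeloid C/EBP factor, stood at 8.41, 8.08 and 8.19 log2 CPM in untreated replicates 1 to 3, at 4.23, 4.97 and 4.72 with LPS and at 5.63, 5.77 and 5.30 with inhibitor and LPS. Every untreated library was highest, every LPS library lowest, and the inhibitor libraries lay between without overlap. LPS lowered it 12.0-fold (95% interval 9.12 to 15.9), a log2 difference of -3.59 (SE 0.19, adjusted p = 3.28e-09). The inhibitor raised it 1.90-fold over LPS alone (1.44 to 2.51), a log2 difference of 0.93 (SE 0.19, adjusted p = 0.0192). Leaving out LPS replicate 3 ended that call (adjusted p = 0.0552), as did leaving out inhibitor replicate 1 (0.0988) or 2 (0.0945). Over all libraries left out in turn the difference ran from 0.72 to 1.09. The level stayed 6.33-fold below untreated cells (adjusted p = 6.83e-08).

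Cebpb, an inducible C/EBP factor, stood at 4.88, 5.06 and 5.37 log2 CPM untreated, at 7.54, 8.001 and 7.97 with LPS and at 8.02, 8.38 and 8.03 with inhibitor and LPS. Untreated libraries were lowest, and the inhibitor libraries began just above the highest LPS library. LPS raised it 6.64-fold (5.20 to 8.47), a log2 difference of 2.73 (SE 0.16, adjusted p = 1.36e-08). The inhibitor difference of 0.31 (interval -0.05 to 0.66, adjusted p = 0.406) was not called. Tmem189, which overlaps Cebpb on the opposite strand, differed by -0.11 with LPS (adjusted p = 0.571) and rose by 0.71 with the inhibitor (adjusted p = 0.0215). Whether reads were counted by strand is not given in the sources used here.

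Cebpd, the other inducible member, stood at 2.42, 2.56 and 3.00 log2 CPM untreated, at 5.90, 6.70 and 6.61 with LPS and at 6.29, 6.66 and 6.21 with inhibitor and LPS. Both LPS-treated groups overlapped each other and lay far above every untreated library. LPS raised it 13.4-fold (9.56 to 18.7), a log2 difference of 3.74 (SE 0.22, adjusted p = 1.42e-08), the largest rise of the 9. The inhibitor difference was -0.01 (interval -0.50 to 0.47, adjusted p = 0.986). Its gene (ENSMUSG00000071637, chromosome 16, 15887286 to 15891031, plus strand) overlaps Spidr on the opposite strand, which rose by 0.79 with LPS (adjusted p = 0.00938).

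The difference between C/EBP genes within each library was higher in every LPS library than in any untreated library. A constant scaling factor per library cancels in such a difference, but the quantile normalisation does not. Only its change between groups is read, since levels of different genes were not compared. Cebpb minus Cebpa was -3.53, -3.02 and -2.82 in untreated libraries, 3.31, 3.04 and 3.25 with LPS, and 2.39, 2.61 and 2.73 with inhibitor and LPS. The inhibitor libraries all lay below the LPS libraries and far above the untreated ones. Cebpd minus Cebpa moved from a mean of -5.57 untreated to 1.76 with LPS and 0.82 with inhibitor and LPS. Of the other C/EBP genes tested, both fell with LPS. Cebpg, a partner without an activation domain, fell by 0.48 (adjusted p = 0.0143), a call lost without untreated replicate 1 or LPS replicate 2 (up to 0.0660) and with libraries centred on ribosomal protein genes (0.0900). Ddit3, the stress-induced CHOP, fell by 0.70 (adjusted p = 0.00348). Neither was called with the inhibitor.

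**Figure D3:**
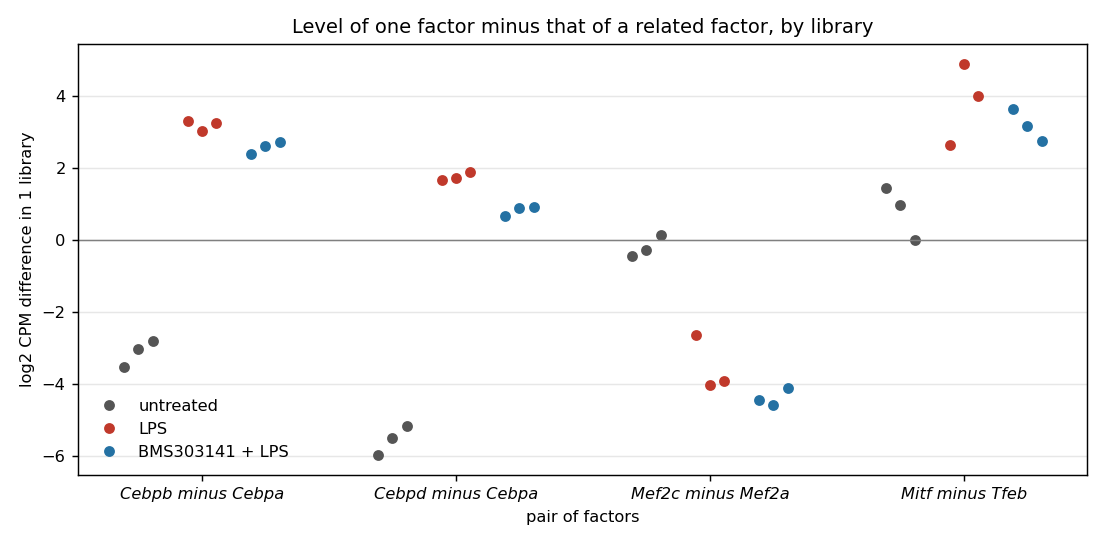
Log2 CPM of a factor minus that of a related factor in the same library, for 4 pairs. Points are libraries, coloured by group. In both C/EBP pairs every LPS library lies above every untreated library, and the inhibitor libraries lie between them.

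Spi1 (ENSMUSG00000002111, chromosome 2, 91082390 to 91115756, plus strand) encodes PU.1. It stood at 7.99, 7.97 and 8.12 log2 CPM untreated, at 8.71, 8.84 and 8.73 with LPS and at 8.53, 8.62 and 8.71 with inhibitor and LPS. Both LPS-treated groups lay above the untreated libraries and met each other at 8.71. LPS raised it 1.66-fold (1.44 to 1.92), a log2 difference of 0.73 (SE 0.10, adjusted p = 3.34e-05). The inhibitor difference was -0.14 (interval -0.35 to 0.07, adjusted p = 0.538). Of 15 ETS family genes tested, Spi1 included, 5 rose and 6 fell with LPS, with a median difference of -0.26. With libraries centred on ribosomal protein genes, 5 rose and 3 fell. Ets2, a target of growth factor signalling, rose by 3.26 (SE 0.15, adjusted p = 1.15e-09), and Spic, a PU.1 relative of red pulp macrophages, rose by 2.60 from a level below 1 CPM. Fli1, a haematopoietic ETS factor, fell by 2.18 (SE 0.21, adjusted p = 2.02e-06) and Elf1 by 1.10. With the inhibitor limma called none of the 15 (4 had an unadjusted p under 0.05), and Spic had the largest difference, 1.26 (adjusted p = 0.0799).

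Maf (ENSMUSG00000055435, chromosome 8, 115682942 to 115707794, minus strand) encodes c-MAF. It stood at 9.62, 9.58 and 9.55 log2 CPM untreated, at 7.95, 8.17 and 8.37 with LPS and at 8.64, 8.52 and 8.79 with inhibitor and LPS. The groups did not overlap, with the inhibitor libraries between the other groups. LPS lowered it 2.68-fold (2.25 to 3.19), a log2 difference of -1.42 (SE 0.12, adjusted p = 3.45e-07). The inhibitor difference of 0.49 (SE 0.12, interval 0.23 to 0.74) missed the threshold narrowly, at an adjusted p of 0.05001. Without LPS replicate 3 it was 0.59 and passed (adjusted p = 0.0412). The small MAF genes, whose proteins lack an activation domain, all rose with LPS. Maff rose by 5.80 (SE 0.23, adjusted p = 2.34e-10) from untreated levels below 1 CPM, Mafg by 0.66 and Mafk by 0.70. The call of Mafk was lost without untreated replicate 1 or 2 or LPS replicate 1 (adjusted p up to 0.116). With the inhibitor limma called none of these 3, though each had an unadjusted p under 0.05. Maff went from a mean of 5.34 log2 CPM with LPS to 4.49 with inhibitor and LPS. Mafg went from 7.08 to 7.76 and Mafk from 4.07 to 3.17, and these groups did not overlap for any of the 3.

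Mef2c (ENSMUSG00000005583, chromosome 13, 83504034 to 83667080, plus strand), a MEF2 factor of lymphoid and myeloid progenitors, had the largest fall. It stood at 8.27, 8.47 and 8.53 log2 CPM untreated, at 4.99, 3.82 and 3.85 with LPS and at 3.46, 3.34 and 3.52 with inhibitor and LPS. LPS replicate 1 was more than 1 log2 unit above the other LPS libraries, and every inhibitor library was below every LPS library. LPS lowered it 18.5-fold (12.7 to 26.9), a log2 difference of -4.21 (SE 0.25, adjusted p = 1.32e-08). The inhibitor difference was -0.78 (SE 0.25, interval -1.32 to -0.24, adjusted p = 0.152). Without LPS replicate 1 it was -0.39 (adjusted p = 0.224). About 36.8 to 41.2 reads per inhibitor library lay behind these values.

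Mef2a (ENSMUSG00000030557, chromosome 7, 67231163 to 67372858, minus strand), the broadly expressed MEF2 factor, stood at 8.71, 8.75 and 8.41 log2 CPM untreated, at 7.62, 7.86 and 7.76 with LPS and at 7.90, 7.94 and 7.64 with inhibitor and LPS. Both LPS-treated groups overlapped and lay below the untreated libraries. LPS lowered it 1.84-fold (1.52 to 2.21, adjusted p = 6.81e-05), while the inhibitor difference was 0.08 (interval -0.19 to 0.35, adjusted p = 0.812). Lysmd4, which overlaps Mef2a on the opposite strand, differed by 0.11 with LPS (adjusted p = 0.834). Gm44667 and Gm44668, which overlap Mef2a on the same strand, are also listed, and their part in its values was not tested. In the same libraries, Mef2c minus Mef2a was -0.44, -0.28 and 0.12 untreated, -2.63, -4.04 and -3.92 with LPS, and -4.44, -4.60 and -4.12 with inhibitor and LPS, so the fall of Mef2c was the larger in every LPS-treated library.

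The MEF2 list with the class IIa histone deacetylases, which bind MEF2 proteins and hold their targets silent, had 7 tested genes. With LPS 6 fell and none rose (median difference -1.31). Hdac5 fell by 3.68 (SE 0.27, adjusted p = 1.16e-07), Hdac4 by 1.33, Hdac7 by 1.31 and Mef2d by 1.22, while Hdac9 differed by -0.25 (adjusted p = 0.360). With the inhibitor 2 of the 7 rose over LPS alone. Hdac9 rose by 1.23 (SE 0.22, adjusted p = 0.00996), a call lost without inhibitor replicate 3 (0.0840). Mef2d rose by 0.66 (adjusted p = 0.0283), a call lost when any of LPS replicates 2 and 3 or inhibitor replicates 1, 2 and 3 was left out (up to 0.152) and with a term for the replicate number (0.0548).

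Runx1 (ENSMUSG00000022952, chromosome 16, 92601466 to 92826149, minus strand), which opens the myeloid programme in blood progenitors, had the smallest difference of the 9 between LPS and untreated cells. It stood at 6.08, 6.40 and 6.36 log2 CPM untreated, at 6.03, 5.83 and 5.88 with LPS and at 6.25, 6.33 and 6.28 with inhibitor and LPS. The LPS libraries were lowest without overlap, and the inhibitor libraries lay within the untreated range. LPS lowered it 1.29-fold (1.07 to 1.55), a log2 difference of -0.37 (SE 0.13, adjusted p = 0.0287). That call ended without untreated replicate 2 (0.111) or 3 (0.0788), without LPS replicate 2 (0.0846) or 3 (0.0812), and with libraries centred on ribosomal protein genes (difference -0.28, adjusted p = 0.245). The inhibitor difference of 0.37 (interval 0.10 to 0.64, adjusted p = 0.176) was not called. Against untreated cells, inhibitor with LPS differed by 0.01 (interval -0.27 to 0.28). Of 6 genes tested in the RUNX list, Tle3, a Groucho-type corepressor, rose by 2.32 with LPS (SE 0.14, adjusted p = 1.86e-08) and by a further 0.74 with the inhibitor (adjusted p = 0.0163), the second call being lost without any 1 of the inhibitor replicates 1, 2 and 3 (up to 0.0950). Cbfb, the shared binding partner of RUNX proteins, differed by 0.43 with LPS (adjusted p = 0.0684).

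Mitf (ENSMUSG00000035158, chromosome 6, 97807052 to 98021349, plus strand) stood at 6.17, 5.89 and 5.79 log2 CPM untreated, at 6.81, 7.39 and 7.18 with LPS and at 6.82, 7.05 and 6.80 with inhibitor and LPS. Both LPS-treated groups overlapped and lay above the untreated libraries. LPS raised it 2.26-fold (1.78 to 2.86), a log2 difference of 1.17 (SE 0.16, adjusted p = 4.06e-05), and the inhibitor difference was -0.23 (interval -0.57 to 0.11, adjusted p = 0.528). Its relative Tfec, the MiT/TFE gene with the most macrophage-restricted expression, stood at 1.26, 1.22 and 2.07 untreated, 6.90, 7.40 and 7.33 with LPS, and 7.41, 7.47 and 7.32 with inhibitor and LPS. It rose by 5.70 with LPS (SE 0.21, adjusted p = 1.55e-10), with no call for the inhibitor. Tfeb, the lysosomal biogenesis factor, fell by 1.88 (SE 0.39, adjusted p = 0.00137), and Tfe3 differed by -0.20 (adjusted p = 0.295). The folliculin complex, which gates these factors at the lysosome, fell in all 3 genes tested: Flcn by 1.47, Fnip1 by 0.48 and Fnip2 by 1.05. Fnip2 rose by 0.73 with the inhibitor (SE 0.13, adjusted p = 0.0105), a call lost without inhibitor replicate 3 (0.0840). Mitf minus Tfeb was 1.44, 0.96 and 0.00 untreated, 2.65, 4.91 and 4.00 with LPS, and 3.65, 3.16 and 2.75 with inhibitor and LPS, which overlapped between the LPS-treated groups.

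Compared with untreated cells, the cells given inhibitor and LPS kept the direction of 8 of the 9 factors, with 4 higher and 4 lower and Runx1 not called. In that comparison 47.1% of all tested genes were called (21.5% higher and 25.6% lower), and it shares libraries with both others. The groups did not overlap for 8 of the 9, beside 59.4% of tested genes. Mef2c was 31.7-fold lower (21.8 to 46.1), beside 18.5-fold with LPS alone. Cebpd was 13.2-fold higher beside 13.4-fold, and Cebpb 8.21-fold higher beside 6.64-fold. Maf was 1.91-fold lower beside 2.68-fold, Mef2a 1.74-fold lower beside 1.84-fold, Spi1 1.51-fold higher beside 1.66-fold and Mitf 1.92-fold higher beside 2.26-fold. These pairs are set side by side, and the test of each difference between them is the comparison of inhibitor and LPS with LPS given above.

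Among 19 other regulators of myeloid fate tested, 5 rose and 12 fell with LPS (median difference -0.96; 10 fell with libraries centred on ribosomal protein genes). Pparg, a lipid-sensing receptor of resident macrophages, fell by 3.44 (SE 0.29, adjusted p = 4.6e-07) and Hhex by 3.34, while Batf, an AP-1 family member, rose by 4.84 (SE 0.26, adjusted p = 4.58e-09). Irf8, the PU.1 partner required for monocyte development, stood at 8.03, 7.91 and 7.93 log2 CPM untreated, 5.90, 5.93 and 5.89 with LPS, and 6.92, 6.89 and 7.20 with inhibitor and LPS, without overlap. It fell by 2.05 with LPS (adjusted p = 6.22e-09) and rose by 1.10 with the inhibitor (SE 0.11, adjusted p = 0.000482). Ikzf1, the lymphoid and myeloid regulator Ikaros, moved the other way, up by 1.17 with LPS (adjusted p = 2.33e-05), and with the inhibitor it fell by 1.01 (SE 0.15, adjusted p = 0.00323). The inhibitor calls of Irf8 and Ikzf1 held with each library left out in turn. Id2, an inhibitor of helix-loop-helix factors, rose by 0.59 with the inhibitor (adjusted p = 0.0193), and Egr2, a factor of alternative activation, fell by 1.47 (adjusted p = 0.0152). Each of these calls was lost in 4 of 9 such fits, for Id2 when LPS replicate 3 or any inhibitor library was absent (up to 0.0987) and for Egr2 when LPS replicate 2 or 3, or inhibitor replicate 1 or 3, was absent (up to 0.0888). Among all tested genes 21.5% were called higher and 25.4% lower with LPS, and 0.959% higher and 1.16% lower with the inhibitor. Over all 55 relatives outside the 9, LPS raised 14 and lowered 29 (median -0.48), and the inhibitor raised 7 and lowered 2 (median 0.18). With libraries centred on ribosomal protein genes the inhibitor calls of Mef2d, Tle3, Fnip2 and Id2 ended, which left 5 of those 9.

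**Figure D4:**
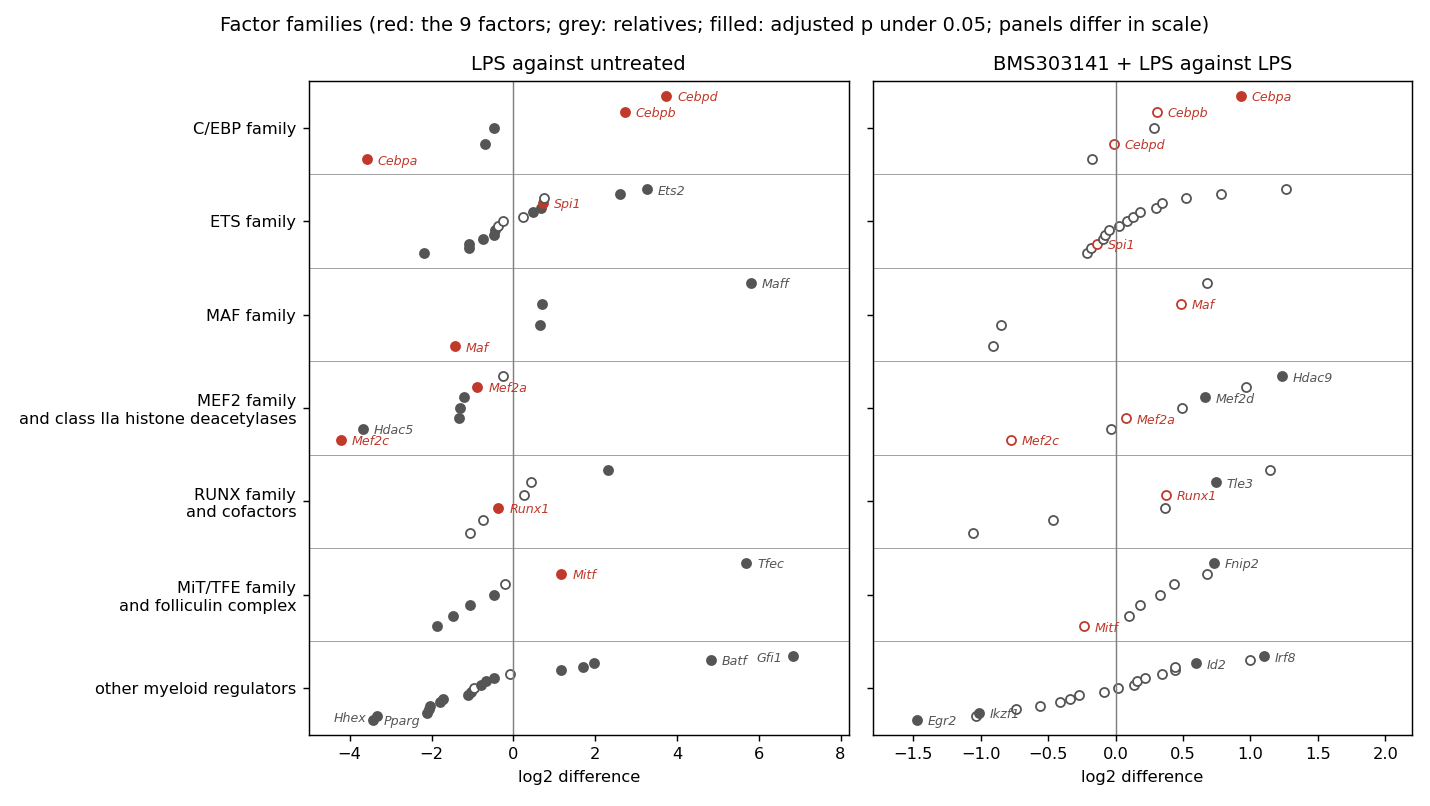
Log2 difference of tested genes in the 7 family lists, for LPS against untreated (left) and BMS303141 with LPS against LPS (right, on its own scale). Red points are the 9 factors, grey points their relatives, and filled points have an adjusted p under 0.05. Irf8 is filled on both sides, at -2.05 with LPS and at 1.10 with the inhibitor.

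Genes known as targets of these factors were counted from 4 lists. The lists were chosen with earlier results of these data known, so their counts are descriptions. The part of the 9 factors in them was not tested. Over all tested genes, LPS raised 21.5% and lowered 25.4%. Of 19 genes linked to PU.1 and C/EBPα, 4 rose and 11 fell with LPS (median -0.38; 9 fell with libraries centred on ribosomal protein genes). Msr1, a scavenger receptor, rose by 2.09 and Cybb, the NADPH oxidase subunit, by 1.59. Csf1r, the receptor for macrophage growth factor, fell by 1.21 (SE 0.12, adjusted p = 1.91e-06). With the inhibitor limma called none of the 19 (4 had an unadjusted p under 0.05), Tlr4 having the smallest p (difference 0.67, adjusted p = 0.0819). Of 15 acute inflammatory genes linked to C/EBPβ and C/EBPδ, all 15 rose with LPS (median 7.18), a count that does not test either factor. Ccl3, a chemokine, rose by 7.18 and Ptgs2, the inducible cyclooxygenase, by 9.40. With the inhibitor 1 of these rose and 2 fell. Il10, the anti-inflammatory cytokine, rose by 1.53 (adjusted p = 0.0294) and Il6 fell by 1.71 (adjusted p = 0.0217), calls lost in 6 and in 4 of the 9 fits that left out a library. Those of Il6 left out LPS replicate 2, LPS replicate 3, inhibitor replicate 1 or inhibitor replicate 3 (up to 0.124). For Il10 they were these and the fits that left out replicate 2 of the untreated or of the inhibitor libraries (up to 0.128). The call of Il6 also ended with a term for the replicate number (0.0540), and that of Il10 with libraries centred on ribosomal protein genes (0.0788).

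Of 9 tested genes linked to c-MAF, such as the complement C1q genes, 2 rose and 7 fell with LPS (median -1.003). The rises were Marco, a scavenger receptor, by 8.04 from an untreated mean of -1.77 log2 CPM, and Il10 by 3.94. Both genes are also in the acute inflammatory list above. With the inhibitor 1 rose, again Il10, and C1qa differed by -0.58 (adjusted p = 0.110). Of 19 lysosome and osteoclast genes linked to the MiT/TFE factors, 4 rose and 12 fell with LPS (median -1.01). Acp5, an acid phosphatase of osteoclasts, rose by 4.33, and Hexa, a lysosomal hexosaminidase, fell by 1.28. With the inhibitor limma called none of the 19 (2 had an unadjusted p under 0.05, Sqstm1 among them with a difference of -0.31).

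For each factor the genes with the most similar profile over the 9 libraries were found among 5621 genes at or above the median level, after centring each gene on its own mean. The measure was the root mean square difference in log2 units, given here as a description. Nearest to Mef2c was Mertk, the apoptotic cell receptor, at 0.255, and nearest to Cebpa was Cerk at 0.226, followed by Inpp5d at 0.254. Cebpb lay nearest to B4galt5 (0.174) and Fosl2 (0.184), and Cebpd to Marcksl1 (0.229) and Clec5a (0.256). The measure is not scaled to the size of a gene's changes, so factors with smaller changes tend to have closer neighbours. These were Rpl24 for Spi1 (0.0583), Kif3a for Maf (0.0909), Atp8b4 for Mef2a (0.0764), Kdm7a for Runx1 (0.0869) and Atp6v1e1 for Mitf (0.0862).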

How the data were processed

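Messenger RNA 3′ ends of 9 libraries (QuantSeq 3′ FWD kit, 100 ng RNA, 16 PCR cycles, per the labels' protocols) were analysed in the 3 groups that the labels give, 3 libraries each. GRCm38 (mm10), featureCounts 1.5.1, STAR 2.5.2b, edgeR, limma and MultiQC are named by the submitters' processing notes. Not given in the sources used here are the role of each tool, the annotation, the strand setting and the filter on genes.

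The deposited values are scores on a log2 scale, read from the values as log2 CPM quantile-normalised by the authors: their powers of 2 sum to 987472 to 987498 per library and the sorted columns nearly coincide. Such values cannot show a change shared by most transcripts. As they are not counts, limma on the log2 values was the test used, and depth (in M, mega: 1.84 to 5.05 per library, listed genes only) was read from the steps between distinct values 5 and 40.

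Of 12204 identifiers 12181 matched a symbol (GENCODE M21, GRCm38). The filter kept genes that reached a log2 CPM of 0 in 3 or more libraries (12196, with 8 removed). All 3 groups entered a single limma 3.58.1 model (R 4.3.3) with a mean trend, two-sided, with Benjamini-Hochberg adjustment over all tested genes and a threshold of 0.05. SE is the moderated standard error, intervals are 95%, and differences are log2 CPM. Steps were tested on simulated data. The 9 factors and all lists were chosen with earlier results of these data known, so list counts are descriptions. Named were the 9 factors, tested genes of the family lists, the 2 genes of smallest p per target list and comparison, listed markers and the 2 nearest profiles per factor. Alternatives were no filter, a filter of 10 CPM, centring on the median or on 78 ribosomal protein genes, no mean trend, library weights, only the groups compared, a replicate term and leaving out each library. Promoters are RefSeq entries, found for 6 of the 9 factors. Some genes of these lists are counted but not reported here by name.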

Additional observations from a re-analysis of the deposited data

How the results depend on the processing

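The number of factors called was 8 or 9 for LPS against untreated and 8 for inhibitor and LPS against untreated under every alternative run. For the inhibitor against LPS it was 1 as reported, 2 with the 10 CPM filter, 0 without the mean trend, 3 with library weights, and 0 to 1 with a library left out. The relatives called there were 9 as reported, 5 with ribosomal centring, 20 with weights and 3 to 12 with a library left out. Over the 17 alternatives, the inhibitor call of Mef2d was lost in 8, Id2 in 6, Tle3 in 5, Fnip2 in 3 and Hdac9 in 1. Those of Irf8 and Ikzf1 were lost in 0 of 17, and that of Egr2 in 4 of 16. Over all genes 258 were called there, 167 with ribosomal centring, 99 without the trend, 814 with weights, 160 without LPS replicate 3, and 79, 143 and 62 without inhibitor replicates 1, 2 and 3. Ribosomal centring moved the share of higher calls in this comparison from 45.3% to 33.5%. The causes were not tested. Cebpa lost its inhibitor call without the trend (adjusted p = 0.107). Maf gained one with the 10 CPM filter (0.0439) and with weights (0.35, adjusted p = 0.0270), and Runx1 with weights (0.40, adjusted p = 0.0243). Runx1 lost its LPS call without the trend (0.0593) and with only the 2 groups compared (0.0660). Differences near 0 changed sign without being called: Cebpd with the inhibitor (-0.26 to 0.13 with a library left out), and Runx1 for inhibitor and LPS against untreated (-0.0013 with median centring, -0.043 with weights, -0.093 to 0.064 with a library left out).

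No pairing of samples by replicate number was seen: correlations of same-numbered libraries ran from -0.297 to 0.165, with 2 of 9 over 0.1. The own number was best in 6 of 18 comparisons. With 3 libraries per group, this cannot exclude a shared mouse or culture. With the replicate block 9, 1 and 8 factors were called in the 3 comparisons, and 5531, 208 and 5558 genes. Depth limits low genes most: in LPS replicate 1 about 26.9 reads stood behind the median gene.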
